A study of Mus musculus with 7 samples.

Results

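The cell cycle and replication genes are a fixed list of 46 genes, matched by symbol to the count table, and all 46 were found among its 55364 genes. They were placed by textbook role into 5 G1 cyclins and kinases, 18 genes of S phase and 23 genes of G2 and mitosis. CD4 T cells, gated as CD45+CD3+CD4+, came from orthotopic tumours in the lungs of C57BL/6 mice older than 8 weeks, and the study counted transcripts at their 3′ ends. The Cre group (genotype I-AbF/FCol1a2-cre, 2 libraries) combined a floxed MHC class II gene with a Cre transgene run by the Col1a2 promoter, which is active in fibroblasts. The Control group (genotype I-AbF/F, 5 libraries) had the same floxed gene and no Cre. All mice of both groups received tamoxifen. The deletion was aimed at fibroblasts of the host, so no gene in the sorted T cells checks it. The comparison asks whether the division programme of tumour CD4 T cells differs when fibroblasts are targeted for loss of MHC class II.

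A resting T cell that meets antigen first makes D cyclins, which with Cdk4 and Cdk6 phosphorylate the retinoblastoma protein and release E2F factors. E2F then switches on the genes that license and copy DNA, among them the MCM helicase that unwinds the double helix. The kinases, motors and chromosome proteins of mitosis are transcribed later in the cycle, by a separate complex that binds promoters through the cell cycle homology region. Tumour-infiltrating CD4 T cells are a mixture in which only some cells divide.

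Short promoter stretches are shown because they carry the letters by which the S-phase and mitotic genes are usually told apart. Each is 24 bases, 5′ to 3′ in the direction of the gene, from RefSeq promoter windows on GRCm38.p6, and the capitals mark the match to an E2F motif (in the first 5) or to the cell cycle homology region (in the last 5).
Mcm3 (chr1:20820277-20820300, minus strand): ttccgtggCGGGAAAacttgggaa
Mcm5 (chr8:75109348-75109371, plus strand): ccaagaacTTTCGCGccaaaacgt
Mcm6 (chr1:128359737-128359760, minus strand): tggacgggTTTGGCGcgaagtagc
Mcm7 (chr5:138171852-138171875, minus strand): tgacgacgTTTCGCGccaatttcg
Birc5 (chr11:117849190-117849213, plus strand): ggcgggacTTTCCCGgctcgcctc
Mki67 (chr7:135716463-135716486, minus strand): ccgttttggTTTGAAtcgggcggg
Plk1 (chr7:122159456-122159479, plus strand): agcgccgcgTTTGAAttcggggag
Ccnb1 (chr13:100786514-100786537, minus strand): ggcccggggTTTAAAcctaagccc
Ccnb2 (chr9:70421536-70421559, minus strand): ggcgcggtaTTTGAAtcgcggacc
Ube2c (chr2:164769891-164769914, plus strand): gggttgcaaTTCAAAcgcgggcgg

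The windows run from 250 bases before to 50 after a gene's start, and 37 of the 46 members had one. An E2F motif (the letters TTTCCCG or the variant TTTCGCG, or else the variants TTTGCCG and also TTTGGCG, on either strand) stood in the windows of 6 of 15 S-phase members, 4 of 18 mitotic members and 1 of 4 G1 members, beside 7.65% of 27025 genes. The cell cycle homology region (the letters TTTGAA or the variant TTTAAA, on either strand) stood in 7 of 15, 15 of 18 and 0 of 4, beside 30.6% of all genes, and CCAAT in 10, 15 and 2 of them, beside 41.1%. TTTAAA reads the same on both strands and counts once, and the Mcm3 and Ube2c matches lie on the strand opposite to the gene. E2F letters were thus found in a larger share of S-phase than of mitotic windows, and the homology region in a larger share of mitotic windows. Both kinds of match occurred in Mcm5, Uhrf1, Birc5 and Cdk1, and a match is no proof of binding.

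Library totals were 1929899 and 1449739 counts in Cre and 1484655 to 1724346 in Control, and the members together held 5937 and 4220 counts in Cre and 4750 to 6575 in Control. Control replicate 1 stood apart, with 44 of the 46 members and 14849 genes detected. The other Control libraries detected 23 to 28 members and 10151 to 10843 genes, and the Cre libraries 23 and 25 members and 9052 and 7896 genes. T cell markers summed to 6349 and 4953 CPM (read counts scaled to a common library size, the unit of level used here) in Cre and to 5069 to 6340 CPM in Control, with all 10 present in both groups. Epithelial and carcinoma markers, which proliferating tumour cells would carry, summed to 25.4 and 1.38 CPM in Cre and to 0.614 to 25.2 CPM in Control. Krt8, Krt18 and Krt19 were at 0 in all 7 libraries, and Epcam and Sftpc were at 0 in both Cre libraries and had at most 3 counts in a Control library. The remaining marker, Cdh1, had 49 and 2 counts in Cre and 8, 33, 41, 13 and 0 in Control. It held all of the 25.4 CPM in Cre and of the 25.2 CPM in Control. Macrophage markers summed to 0 and 4.83 CPM in Cre and to 7.37 to 48 CPM in Control, so both Cre libraries lay below the Control range. Markers of CD8 T and NK cells were at 0 in both Cre libraries and summed to 0 to 16.8 CPM in Control, and those of B cells and neutrophils stayed under 2 CPM in all 7 libraries. Fibroblast markers summed to 258 and 53.1 CPM in Cre and to 160 to 491 CPM in Control. The labels call the animals matched for gender, while Xist had 1 and 86 counts in Cre and 340, 16, 76, 266 and 476 in Control. The Y-linked Ddx3y had 76 and 89 counts in Cre and 1, 34, 141, 2 and 0 in Control. Both Cre libraries thus held Ddx3y, while Control replicates 1, 4 and 5 had nearly none, so sex may differ in part with group. The part of these differences in the results was not tested.

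No member passed the test across all genes in either direction. The test was the quasi-likelihood test of edgeR with p-values adjusted by Benjamini-Hochberg over 9854 tested genes, of which 0.0101% (1 gene) passed as lower in Cre and 0% as higher. In simulated data this test missed most large decreases, as given below. The filter on low counts kept 29 members, with adjusted p-values of 0.214 to 0.978, and left out 17. At an unadjusted p under 0.05, 3 members were lower in Cre (Mcm3, Cdk4 and Mcm7), beside 10.2% of all tested genes, and 1 was higher (Ncaph), beside 1.41%. DESeq2, run as an alternative, called Ncaph higher and Mcm3 lower, beside 0.355% of all genes higher and 6.16% lower. The authors' deposited table, also made with DESeq2, gives the same 2 members an FDR under 0.05, beside 0.211% of its 18008 genes with a p-value as higher and 3.64% as lower. The fitted value was lower in Cre for 23 of the 29 tested members, against 60.1% of all tested genes. Without Control replicate 1 it was lower for 18 of 25. A gene enters the test if at least 2 libraries hold enough counts of it, so a member seen only in some Control libraries enters with a low Cre value by construction, and this count is a description.

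**Figure D1:**
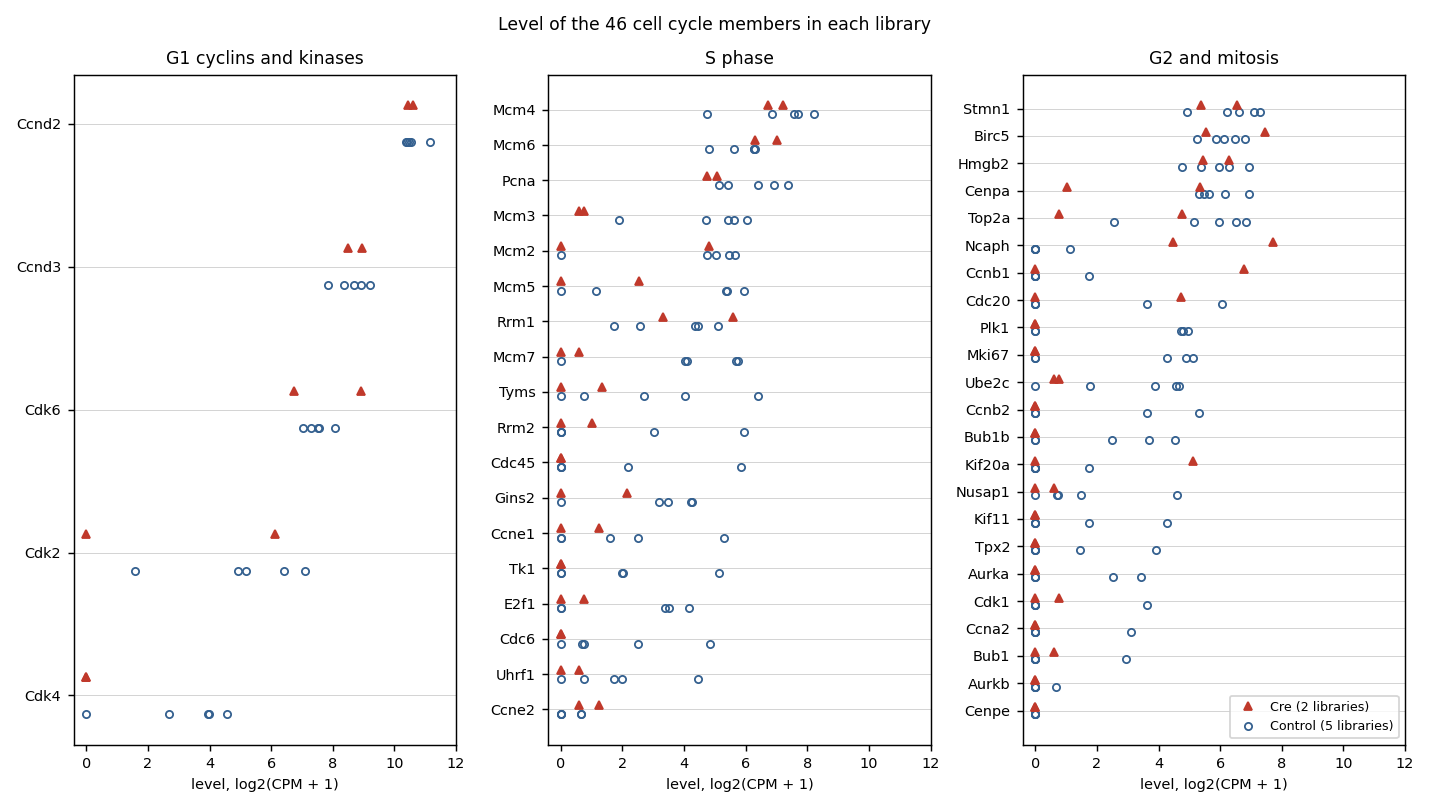
Level of each of the 46 members, as log2(CPM + 1), with red triangles for the 2 Cre libraries and open blue circles for the 5 Control libraries, by role. The G1 members Ccnd2, Ccnd3 and Cdk6 were counted in every library, whereas many S-phase and mitotic members were at 0 in several libraries of either group.

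Among the G1 genes, the D cyclins were counted deeply in every library and did not pass the test. Ccnd2, a D cyclin of lymphocytes, had 2654 and 2231 counts in Cre and 3865, 1998, 2395, 2303 and 2326 in Control. Its level was 1457 ± 116 CPM in Cre (SD, n = 2) and 1575 ± 405 CPM in Control (n = 5). The fitted log2 difference, −0.12 ± 0.33 (SE; edgeR adjusted p = 0.94), turned sign with DESeq2 size factors (0.0004) and without Control replicate 1 (0.11). Ccnd3, the other D cyclin of T cells in the list, had 696 and 718 counts in Cre and 803, 880, 368, 706 and 532 in Control, a log2 fold change of 0.07 ± 0.43 (edgeR adjusted p = 0.973) that turned to −0.03 with upper-quartile factors. The Cre libraries lay inside the Control range for both cyclins.

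Their kinase partners were less even between the Cre libraries. Cdk6, which pairs with D cyclins, had 939 and 152 counts in Cre and 262, 275, 295, 222 and 438 in Control. One Cre library was thus above and the other below every Control library, and the log2 fold change of 0.72 ± 0.55 (edgeR adjusted p = 0.626) turned to −0.79 without Cre replicate 1. Cdk4, the second D-type kinase, had 0 counts in both Cre libraries and 25, 8, 37, 25 and 0 in Control. Against the limit of 3 counts over both Cre libraries (0.888 CPM) this was at least 12.9-fold lower, a limit that leaves out the spread between libraries. Cdk4 did not pass (edgeR adjusted p = 0.427). Cdk2, the partner of cyclins E and A, had 0 and 99 counts in Cre and 3 to 223 in Control. In bulk libraries, fewer dividing cells and less RNA per cell cannot be told apart, here or in the results that follow. The Cre libraries also detected fewer genes in total, and the part of this in low Cre values was not tested. The 5 G1 members summed to 2222 and 2207 CPM in Cre, inside the 1933 to 2974 CPM of Control, where the highest value was that of replicate 1.

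The MCM helicase holds its 6 subunits in equal numbers. The fitted value was lower in Cre for all of them except Mcm6, and none passed edgeR. A difference in direction between subunits was thus not shown. Mcm3 had 1 count in each Cre library and 110, 4, 79, 73 and 41 in Control, so both Cre libraries lay below every Control library. Its level was 0.604 ± 0.121 CPM in Cre (SD, n = 2) and 36.8 ± 23.9 CPM in Control (n = 5). On so few Cre counts the ratio was 63.7-fold lower, with a 95% exact counting interval of 17.5 to 528, which leaves out the spread between libraries. Mcm3 did not pass edgeR (adjusted p = 0.408), passed DESeq2 (adjusted p = 0.0109), and has an FDR of 0.0067 in the authors' deposited table. Without Control replicate 1, DESeq2 no longer called it.

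Mcm7 was also nearly absent in Cre, with 1 and 0 counts, against 26, 78, 0, 87 and 26 in Control (edgeR adjusted p = 0.427). The ratio was 90-fold lower, with a 95% exact counting interval of 15.98 to 3571 that again leaves out the spread between libraries. A Control library was at 0 too, so the groups overlapped. A counted region of Cops6 lies across the main Mcm7 region on the opposite strand, and whether counting used strand is not given in the sources used here. Mcm5 had 0 and 7 counts in Cre and 67, 61, 2, 104 and 0 in Control, and Mcm2 had 0 and 39 in Cre and 83, 64, 42, 55 and 0 in Control (edgeR adjusted p = 0.594 and 0.893). Both overlapped between the groups.

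The other 2 subunits were well counted in Cre. Mcm4 had 287 and 153 counts in Cre and 195, 440, 42, 359 and 308 in Control, or 127 ± 30.5 CPM in Cre (n = 2) and 167 ± 102 CPM in Control (n = 5). Its log2 fold change was −0.38 ± 0.75 (edgeR adjusted p = 0.909) and turned to 0.01 with limma voom. Mcm6 had 246 and 114 counts in Cre and 128, 116, 125, 84 and 44 in Control. In CPM over raw totals both Cre libraries (127 and 78.6) lay above every Control library, of which the highest had 78.1. Control replicate 1 had 75.9 CPM, close to the 78.6 of Cre replicate 2. The TMM scaling factors of these 2 libraries (0.93 and 1.01) differ by more than that margin, so the order depends on the scaling. The log2 fold change of Mcm6 was 0.75 ± 0.78 (edgeR adjusted p = 0.767). Within the Cre libraries Mcm4 and Mcm6 were thus high while Mcm3 and Mcm7 had at most 1 count. The promoter stretches of Mcm3, Mcm6 and Mcm7 printed earlier all carry E2F letters.

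**Figure D2:**
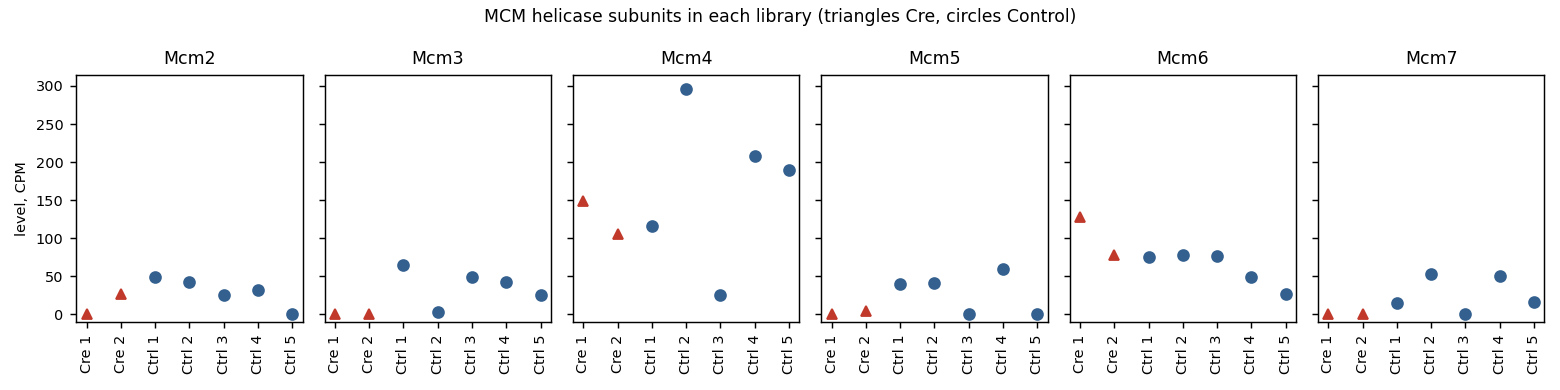
Level of the 6 MCM helicase subunits in CPM, library by library, with red triangles for Cre and blue circles for Control. Mcm4 and Mcm6 were counted in all 7 libraries, while Mcm3 and Mcm7 were at or under 1 CPM in both Cre libraries.

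The remaining S-phase genes were mostly low in Cre, and also uneven among the Control libraries. Pcna, the sliding clamp of DNA polymerases, had 50 and 47 counts in Cre and 58, 125, 194, 72 and 270 in Control. Its level of 29.2 ± 4.60 CPM in Cre (n = 2) lay below every Control library (89.1 ± 54.9 CPM, n = 5). The nearest values were 32.4 CPM in Cre replicate 2 and 34.4 CPM in Control replicate 1. The DESeq2 size factors of these 2 libraries (0.945 and 1.05) differ by more than that margin, so this order also depends on the scaling. The fitted log2 difference was −1.58 ± 0.95 (edgeR adjusted p = 0.48). Tyms, which makes thymidylate, had 3 and 0 counts in Cre and 26, 1, 9, 143 and 0 in Control, where a single library held most of them (edgeR adjusted p = 0.517). E2f1, itself an E2F factor, had 0 and 1 counts in Cre and 16, 25, 0, 0 and 17 in Control (edgeR adjusted p = 0.579).

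Both subunits of ribonucleotide reductase, which supplies deoxynucleotides, were tested. Rrm1 had 91 and 13 counts in Cre and 4 to 49 in Control, with a fitted value above Control, and Rrm2 had 2 and 0 counts in Cre and 0 to 98 in Control, with a fitted value below it. Gins2, a part of the active helicase, had 0 and 5 counts in Cre and 0 to 29 in Control. The 6 S-phase members left out by the filter were Ccne1, Ccne2, Cdc6, Cdc45, Tk1 and Uhrf1, with at most 2 counts in a Cre library and, in the Control library that held most of each, 1 to 97. The highest of these was Cdc45, a component of the active helicase together with MCM and GINS, with 97 counts in Control replicate 4 from a pair of regions that held 49 and 48, the second of them 2 bases long. Whether the same reads were counted in both was not tested. Of 12 tested S-phase members, 10 had a lower fitted value in Cre, beside 60.1% of all tested genes. Their median log2 fold change was −3.11, beside −0.39 over all tested genes. For all genes under 10 CPM that median was −3.52, and between 10 and 30 CPM it was −0.93. Members seen only in some Control libraries enter the test with a low Cre value by construction, so these values are a description. In CPM over raw totals, both Cre libraries lay below every Control library for 2 of the 12 (Mcm3 and Pcna) and above for 1 (Mcm6). The shares over all tested genes were 10.9% and 4.05%.

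Of the tested members, Ncaph had the smallest p-value. It is a mitotic gene that encodes a subunit of condensin, which compacts chromosomes, and had 41 and 304 counts in Cre and 2, 0, 0, 0 and 0 in Control. The ratio was 416-fold higher in Cre, with a 95% exact counting interval of 114 to 3448. That interval leaves out the spread between libraries, which was wide in Cre (21.2 and 210 CPM). The groups did not overlap, and the adjusted p of Ncaph was 0.214 with edgeR and 0.000141 with DESeq2. The authors' deposited table gives an FDR of 0.000316. The call rested on single libraries. Leaving out Cre replicate 1 gave an edgeR adjusted p of 0.0151 and leaving out Cre replicate 2 gave 0.434, each with a single Cre library assumed to vary like Control, and without Cre replicate 2 DESeq2 did not call it. All of its counts fell in 1 region on the minus strand (mm10 chromosome 2, 127103560 to 127104280), whose 721 bases comprise 472 of annotated 3′ UTR and 249 downstream of the gene.

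Mki67 and Plk1 had no count in Cre and were patchy in Control. Mki67, the Ki-67 antigen, had 0 counts in both Cre libraries and 31, 0, 55, 50 and 0 in Control, at least 18.3-fold lower in Cre (edgeR adjusted p = 0.429). Plk1, a kinase of mitotic entry, was likewise at 0 in both Cre libraries and had 51, 38, 0, 0 and 44 counts in Control, at least 18.7-fold lower (edgeR adjusted p = 0.429). Both limits reflect counting error alone and leave out the spread between libraries. These genes were each at 0 in 2 of the 5 Control libraries, but not in the same ones.

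Other mitotic members had the same layout at lower depth. Bub1b, a spindle checkpoint kinase, was at 0 in both Cre libraries and had 20, 0, 0, 8 and 36 counts in Control (edgeR adjusted p = 0.43). Ccnb2, a B cyclin, was at 0 in both Cre libraries and had 19, 58, 0, 0 and 0 in Control (edgeR adjusted p = 0.442). Ube2c, a ubiquitin-conjugating enzyme of the anaphase-promoting complex, had 1 count in each Cre library and 23, 34, 4, 0 and 40 in Control (edgeR adjusted p = 0.495). For all 3 the groups overlapped, since some Control library had no count.

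The mitotic members counted in every library did not pass the test. Birc5, the survivin of the chromosomal passenger complex, had 335 and 66 counts in Cre and 115, 164, 143, 99 and 60 in Control. Its log2 fold change of 0.62 ± 0.78 (edgeR adjusted p = 0.824) turned to −0.65 without Cre replicate 1. Stmn1, a microtubule regulator, had 177 and 59 counts in Cre and 228, 44, 159, 267 and 120 in Control, and Hmgb2, a chromatin protein, had 150 and 61 in Cre and 44, 91, 124, 211 and 66 in Control (edgeR adjusted p = 0.859 and 0.978). Top2a, the topoisomerase that untangles chromosomes, had 50 and 1 counts in Cre and 8 to 186 in Control, and Cenpa, the centromeric histone, had 2 and 57 in Cre and 65 to 210 in Control. The Cre libraries fell on both sides of some Control libraries for Birc5, Stmn1 and Hmgb2, and the Cre library with nearly no count was a different one for Top2a and for Cenpa.

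The filter left out 11 mitotic members. Of these, Ccna2, Aurka, Aurkb, Kif11 and Tpx2 were at 0 in both Cre libraries and had at most 30 counts in a Control library, and Cenpe had no count in any of the 7. Cdk1, Bub1 and Nusap1 had at most 1 count in a Cre library and up to 40 in Control. Ccnb1 and Kif20a went the other way in 1 library each. Ccnb1, the main B cyclin, had 207 counts in Cre replicate 1, 0 in replicate 2 and at most 4 in Control, and Kif20a, a motor of cytokinesis, had 49 in Cre replicate 2, 0 in replicate 1 and at most 4 in Control. Cdc20, which passed the filter, had 0 and 37 counts in Cre and 0 to 108 in Control. Of 12 tested mitotic members, 10 had a lower fitted value in Cre, beside 60.1% of all tested genes. Their median log2 fold change was −1.93, and the same median resulted when the 4 without a Cre count were set to their limit. As for S phase, the filter favours low Cre values by construction, so these values are a description. Counting the tested mitotic members whose groups did not overlap, Cre was above Control for 1 of the 12, beside 4.05% of all tested genes, and below for 0, beside 10.9%. Over all roles, 5 of 29 tested members were at 0 in both Cre libraries, beside 13.7% of all tested genes.

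S-phase and mitotic genes were then set against each other within each library, where their ratio does not depend on the scaling. The 18 S-phase members summed to 354 and 265 CPM in Cre, below all Control libraries, which had 478, 670, 425, 664 and 512 CPM. The means were 309 ± 63.0 CPM in Cre (SD, n = 2) and 550 ± 111 CPM in Control (n = 5), a log2 ratio of −0.83. The 23 mitotic members summed to 500 and 439 CPM in Cre and to 448, 422, 563, 605 and 273 CPM in Control, with means of 469 ± 43.4 and 462 ± 131 CPM. The groups did not overlap for the S-phase sum and overlapped for the mitotic sum. The macrophage marker sum given earlier was likewise below every Control library in Cre, and its part in the S-phase sum was not tested. The log2 ratio of S-phase to mitotic level was −0.50 and −0.73 in Cre and 0.09, 0.67, −0.41, 0.13 and 0.91 in Control, so the Cre libraries were lower than every Control library, by a small margin from Control replicate 3. This order depended on a few mitotic genes that were high in Cre, as given below. A sum over chosen genes is given no p-value here.

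Both sums rested on few genes in Cre. Mcm4 and Mcm6 supplied 78.0% and 69.5% of the S-phase counts in the Cre libraries and 24.2% to 55.9% in Control. Without them, a choice made after the values were seen and with the same effect of lowering Cre, the S-phase sum was 77.7 and 80.7 CPM in Cre and 286.5, 296, 322, 407 and 296 CPM in Control, a log2 ratio of −2.02. At 10 CPM or more, 4 S-phase members were found in each Cre library and 8 to 10 in each Control library. For mitotic members these counts were 6 and 7 in Cre and 7 to 13 in Control, and for G1 members 3 and 4 in Cre and 3 to 5 in Control. The share of all genes at that level was not computed, and the Cre libraries detected fewer genes in total. In the mitotic sum, Birc5 with Ccnb1 in Cre replicate 1, and Ncaph in replicate 2, took the largest parts. Without these 3 genes, also chosen after the fact and for being high in Cre, so that their removal lowers Cre by construction, the mitotic sum was 198 and 183 CPM in Cre and 376, 312, 475, 548 and 237 CPM in Control, a log2 ratio of −1.03 in place of 0.02. Without Stmn1 and Hmgb2 instead, chosen for their abundance, that ratio was 0.20. The lower S-phase to mitotic ratio of Cre did not hold when Birc5, Ccnb1 and Ncaph alone were left out. The S-phase sum then exceeded the mitotic sum in both Cre libraries (354 against 198 and 265 against 183 CPM). In Control replicate 3 it was smaller (425 against 475 CPM), so Cre was no longer below every Control library. With Mcm4 and Mcm6 left out as well, the log2 ratio was −1.35 and −1.18 in Cre and −0.56 to 0.32 in Control.

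**Figure D3:**
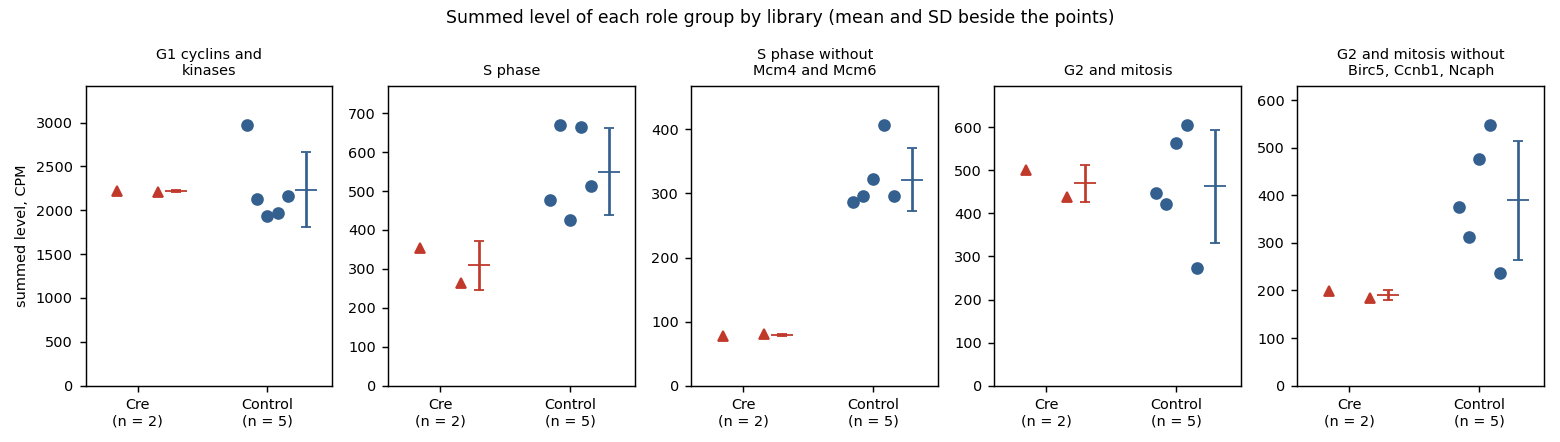
Summed CPM of each role group in the 2 Cre libraries (red triangles) and the 5 Control libraries (blue circles), with the mean and SD beside the points, for all members and without the genes named above each panel. The S-phase sum of Cre lies below all Control libraries, and the mitotic sum lies inside their range until Birc5, Ccnb1 and Ncaph are left out.

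Low values in Cre were common among weakly counted genes of every kind, so the members were set beside all tested genes of like abundance (mean CPM over the 7 libraries). Of tested genes, 25.0% and 33.6% had no count in the Cre libraries and 1.14% to 16.1% in Control. The same held for 37.9% and 27.6% of tested members in Cre and 0% to 31.0% in Control. Among the 1875 genes under 10 CPM, 74.8% had a lower fitted value in Cre and the median log2 fold change was −3.52, while all 7 members of that class were lower, with a median of −4.43. Among the 2964 genes between 10 and 30 CPM the median was −0.93 and 63.9% were lower. In that class 8 of 9 members were lower, with a median of −4.58. The 9 were Cdc20, Mcm2, Mcm3, Mcm5, Mcm7, Mki67, Plk1, Rrm1 and Tyms.

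Summed over that class of 10 to 30 CPM, the members had 58.3 CPM in Cre and 208 CPM in Control, a log2 ratio of −1.83, where all 2964 genes gave −0.31. Without Control replicate 1 these ratios were −1.73 and −0.35. Between 30 and 100 CPM, 6 of 9 members had a lower fitted value, with a median log2 fold change of −0.57, where 52.9% of all 3127 genes were lower, with a median of −0.11. Those 9 members summed to 551 CPM in Cre and 570 CPM in Control (log2 ratio −0.05), of which Ncaph alone held 115 CPM in Cre and 0.237 CPM in Control. The 4 members at 100 CPM or more (Mcm4, Cdk6, Ccnd2 and Ccnd3) split evenly between higher and lower fitted values. The members' median was thus below that of all genes in the 3 classes under 100 CPM, though fitted values at few counts depend on the prior count. Members at 0 in both Cre libraries were 3 of 7 under 10 CPM, beside 40.7% of genes, and 2 of 9 between 10 and 30 CPM, beside 17.8%. Lower at an unadjusted edgeR p under 0.05 were 1 of 7, beside 8.11%, and 2 of 9, beside 17.7%. By these counts the members lay near their classes.

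**Figure D4:**
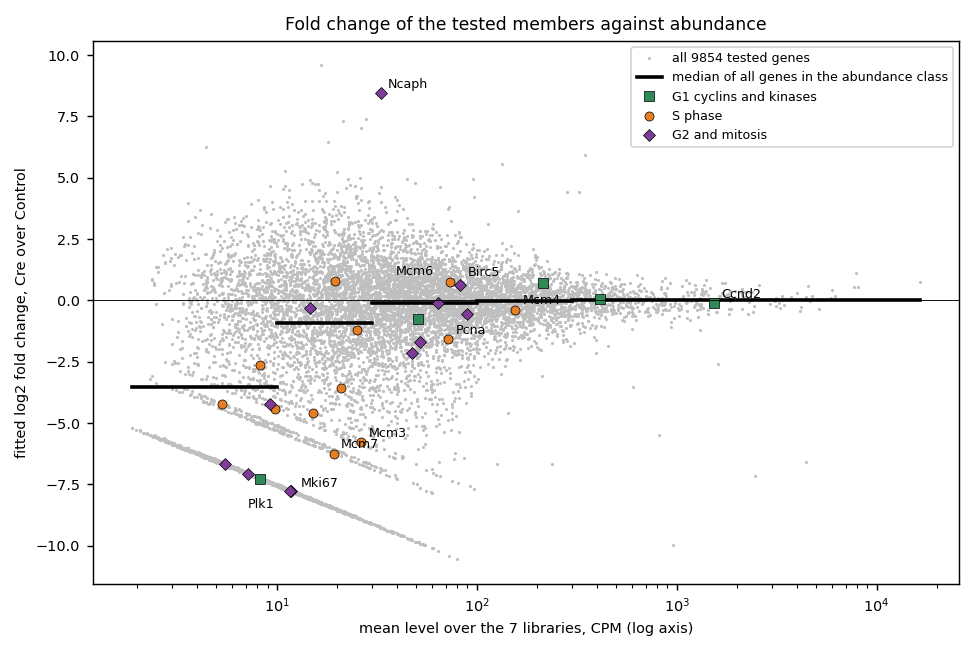
Fitted log2 fold change (Cre over Control) against mean CPM over the 7 libraries (log axis) for all tested genes (grey) and the 29 tested members by role, with black bars for the median of all genes in each abundance class. Most members under 30 CPM lie below the bar of their class, members above 100 CPM lie near 0, and Ncaph stands far above all other members. The straight diagonal of points at the bottom holds genes at 0 counts in both Cre libraries, whose fitted value depends on the prior count.

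That unevenness is measured by the biological coefficient of variation, the spread between libraries beyond counting error. Its median was 1.31 for the tested members and 1.21 for all tested genes, but 0.562 for the G1 members, 1.49 for S-phase members and 1.40 for mitotic members. This measure falls with abundance. In the 5 abundance classes, low to high, its medians were 1.83, 1.62, 0.797, 0.62 and 0.447 for members and 1.81, 1.47, 1.004, 0.602 and 0.465 for all genes, so members were above all genes in 3 classes and below in 2.

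Another 100 genes of the same pathways, in 5 lists, were described in the same way, and 0 of the 63 tested passed edgeR. At an unadjusted p under 0.05, 9 were lower, beside 10.2% of all tested genes, and 0 higher, beside 1.41%. DESeq2 called 5 of them lower (Cdca8, Orc5, Pold1, Pold3 and Rfc2) and 0 higher, beside 6.16% and 0.355% of all genes. In the replication fork and repair list, 17 of 23 tested genes had a lower fitted value in Cre, against 60.1% of all tested genes, with a median log2 fold change of −0.98, and 6 were lower at that unadjusted p. The 30 genes of that list summed to 434 and 1011 CPM in Cre and to 722 to 1125 CPM in Control, so 1 Cre library was below and the other inside the Control range. Rfc2, a subunit of the clamp loader that places Pcna on DNA, had 0 counts in both Cre libraries and 88, 78, 85, 60 and 90 in Control (edgeR adjusted p = 0.27, DESeq2 adjusted p = 0.000169). Pold1, the catalytic subunit of DNA polymerase delta, was at 0 in both Cre libraries and had 13, 132, 5, 20 and 151 counts in Control (edgeR adjusted p = 0.367, DESeq2 adjusted p = 0.00398). Both lay below every Control library in Cre. In that list this held for 6 of the 23 tested genes, with 0 above every Control library, beside 10.9% and 4.05% of all tested genes.

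In the list of origin licensing and firing, 4 of 9 tested genes were lower in Cre by fitted value. Orc5, of the origin recognition complex, had 0 counts in both Cre libraries and 10, 62, 58, 14 and 16 in Control (edgeR adjusted p = 0.398, DESeq2 adjusted p = 0.0171), while Orc3, of the same complex, had 31 and 30 in Cre and 28, 0, 0, 0 and 0 in Control (edgeR adjusted p = 0.747). Among kinetochore, spindle and cytokinesis genes 10 of 15 tested were lower. Cdca8 and Incenp, which share the chromosomal passenger complex with Birc5, lay below every Control library, with 0 and 1 counts in Cre and 21, 22, 46, 44 and 100 in Control for Cdca8, and 58 and 19 in Cre and 114, 164, 152, 222 and 63 in Control for Incenp (edgeR adjusted p = 0.422 and 0.429). They were the only 2 of the 15 tested to do so, with 0 above every Control library, beside 10.9% and 4.05% of all tested genes. DESeq2 gave Cdca8 an adjusted p of 0.017.

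Among the other condensin genes, of 5 tested, 4 had a lower fitted value in Cre, beside 60.1% of all tested genes. The list summed to 279 and 312 CPM in Cre, inside the 238 to 519 CPM of Control. Smc4, the best counted of the 5, had 398 and 452 counts in Cre and 483, 271, 596, 399 and 260 in Control. Its log2 fold change was 0.07 ± 0.46 (edgeR adjusted p = 0.973). Smc2, a core ATPase of condensin, had 0 counts in both Cre libraries and 13, 0, 140, 9 and 0 in Control, and Ncapd3, of the second condensin complex, had 1 and 0 in Cre and 13, 15, 0, 7 and 37 in Control (edgeR adjusted p = 0.429 and 0.472). The last list held CDK inhibitors and pocket proteins, which hold the cycle back, together with other E2F factors and their partners, some of which activate it, and 7 of 11 tested were lower by fitted value. E2f4, a mostly repressive E2F, had 0 counts in both Cre libraries and 28, 8, 60, 0 and 20 in Control, and Cdkn1a, the inhibitor p21, had 2 and 1 in Cre and 9, 0, 21, 20 and 1 in Control (edgeR adjusted p = 0.427 and 0.71).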

How the data were processed

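Sorted tumour CD4 T cells were profiled in 2 Cre and 5 Control libraries, grouped by their titles. The authors deposited raw counts per 3′ region (116000 regions), per the file headers, and a table of their comparison with p-values and FDR from DESeq2, a fold as a ratio of normalized values, its log2 and the GC percent of each gene. Tools listed in the submitters' processing notes are HISAT2 2.1.0, FastQC 0.11.8 and DESeq2, with the build mm10. How reads were counted, by which tool and with which use of strand, is not given in the sources used here. Regions were summed per gene, and CPM divides by the total of all regions. Of all counts, 11.6% lay in regions that overlap another gene's region on the same strand, and none of the members' did. Regions of 12 members overlap another gene's region on the opposite strand, among them Cdk4, Ccnd2, Ccnd3, Cdc20, Mcm2, Mcm7 and Plk1.

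The test was edgeR 4.0.16 in R 4.3.3 (TMM, robust quasi-likelihood, group as the only term, filterByExpr with a minimum count of 10 and total of 15), two-sided, with Benjamini-Hochberg adjustment over all tested genes at 0.05. Standard errors come from the F statistic. Fitted fold changes of genes at or near 0 counts depend on the prior count, so counts, limits (3 counts over both Cre libraries) or exact counting ratios are given. These limits and intervals reflect counting error alone, because PCR copies without molecular identifiers may repeat a molecule. Alternatives were other scalings, other filters, each library left out, a replicate block, DESeq2 1.42.0, limma 3.58.1 voom and other region sums. The fitting code was tested on simulated data with the fitted spread of these genes. It called 14.8% of genes set at a log2 change of −6 in Cre and 15.6% at −4. It called 46% at 4 and 55.6% at 6, and 0.0684% of unchanged genes. Most large decreases were thus missed, so a gene that did not pass may still differ.

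Members, lists and roles were chosen with earlier results of these data known. Values per library are printed for the 12 members of smallest p, the 3 of highest level per role and the 6 MCM genes, and for 2 genes of smallest p per further list. Others named are given by ranges or were chosen after their values were seen. GENCODE M21, on the same build, placed regions against UTRs.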

Additional observations from a re-analysis of the deposited data

Results flagged for a closer look

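In 28 sets of Control values tested for a library far from the others, 7 stood out. The nominal rate of 1 in 20 assumes independent, normally spread values. Some sets here hold many zeros, and some overlap, such as Ccnd2 with the sum of G1 members, so 7 is not set against that rate. Of the 7, 5 were in Control replicate 1, which detected 44 members and 14849 genes, held 2293 CPM of Ccnd2 and 2974 CPM of all G1 members, and had the only Control counts of Ncaph (1.19 CPM). Ccnb2 stood at 39.1 CPM in Control replicate 2, and Tyms at 82.9 CPM in Control replicate 4, each far above the other Control libraries.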

How the results depend on the processing

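No member was called by edgeR with any of the other scalings, the stricter filter or limma voom, and Ncaph was called without a filter on low counts (1 of 45 members) and by DESeq2, which called 2 members. Over all genes, the higher and lower calls were 15 and 28 without the filter, 35 and 607 by DESeq2, and 3 and 0 by limma voom, with 0 lower with library weights. Leaving out each library in turn gave 0 to 17 higher and 1 to 202 lower calls by edgeR, and 0 to 1 member (Ncaph, without Cre replicate 1). By DESeq2 this gave 31 to 93 higher and 380 to 1510 lower calls and 1 to 5 members. Those were 4 without Cre replicate 1 (Mcm3, Mcm7, Ncaph, Top2a), 5 without Cre replicate 2 (Ccnb1, Cdk2, Cenpa, Mcm2, Mcm3) and 1 without Control replicate 1 (Ncaph). Leaving out a Cre library leaves 1, assumed to vary like Control. The count of members with a lower fitted value was 36 of 45 without the filter, 9 of 14 with the stricter one and 18 to 34 when libraries were left out, which also changes how many are tested.

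Replicate numbers 1 and 2 occur in both groups, and deviations from the group mean had correlations of 0.003 and 0.002 between same-numbered libraries. With 2 Cre libraries, their deviations mirror each other, so these values are not separate checks. Whether same-numbered libraries share a preparation cannot be told from them. With the replicate block, 5 genes were called lower and 0 members were called, and the fitted values of Birc5 (−0.0041), Ccnd3 (−0.37) and Hmgb2 (0.47) changed sign.

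Alternatives chosen after seeing the data were the sums without named genes and the DESeq2 fits with a library left out. The log2 ratio of Cre to Control was −2.02 for S phase without Mcm4 and Mcm6, and −1.03 for mitosis without Birc5, Ccnb1 and Ncaph, against 0.02 with them. With each library left out, the ratios ranged from −1.05 to −0.64 for S phase and from −0.12 to 0.14 for mitosis. Signs of small fitted differences also turned for Ccnd2 (0.00041 with DESeq2 size factors, 0.00033 by DESeq2), Ccnd3 (−0.029 with upper-quartile factors), Hmgb2 (0.055 by voom, 0.30 with library weights) and Mcm4 (0.011 and 0.027, by the same methods). Left-out libraries gave −0.65 to 1.31 for Birc5, −0.18 to 0.11 for Ccnd2, −0.13 to 0.29 for Ccnd3, −0.79 to 1.46 for Cdk6 and −0.62 to 0.31 for Hmgb2. The cause was not tested. With 2 Cre libraries, members at a few counts are not resolved.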
